A study of Mus musculus with 6 samples.

Results

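The fatty acid oxidation genes are 32 genes taken by symbol from the 24422 genes counted in mouse kidney RNA. They comprise 3 genes of the carnitine shuttle, 9 of the mitochondrial spiral, 3 auxiliary enzymes, 3 of the electron transfer flavoprotein chain, 6 peroxisomal genes, 6 genes of fatty acid activation and 2 regulators. The list was set by gene name and function, by a rule that uses no measured value, and it was drawn up with earlier results of these data known. All 32 genes were present, had counts in every library and received an adjusted p-value, so no member was lost to a filter on low counts. The lowest mean over the 6 libraries was 129 normalised counts and the highest 20190 (counts divided by a library's size factor).

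Poly-A RNA was sequenced from 6 whole kidneys of C57BL/6 mice at postnatal day 13, all on an iron sufficient diet of 220 ppm iron. The 3 Control kidneys carry the genotype wild type and the 3 TfR1 knockout kidneys the genotype Tfr1f/f;SixCre, in which floxed exons 3 and 4 of the transferrin receptor gene are deleted by Six2Cre. Six2Cre is active in the progenitors of the nephron, so stroma, vessels and the collecting duct system are not its targets, and the study describes TfR1+ cells that escaped deletion in these kidneys. The comparison asks how transcript levels differ in kidneys whose nephron lineage was to lack the receptor for transferrin-bound iron. The control animals were littermates. The study states equal use of male and female offspring for its work as a whole, not for these 6 kidneys. Values are given in the order of replicates 1 to 3 of Control and then of TfR1 knockout kidneys, and the ± after a log2 fold change is its standard error.

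Long-chain fatty acids are activated to acyl-CoA outside the mitochondrial matrix and passed into it by the carnitine shuttle, while medium-chain acids can be activated in the matrix by Acsm enzymes without the shuttle. The acyl-CoA is shortened in a repeating spiral of dehydrogenation, hydration, dehydrogenation and thiolysis, whose electrons pass through the electron transfer flavoproteins to the respiratory chain. Peroxisomes carry out a parallel spiral that starts with an oxidase and handles very long, branched and dicarboxylic acids. The proximal tubule draws most of its energy from this pathway, and the nuclear receptor PPAR alpha with its partner RXR and the coactivator PGC-1 alpha raises the transcription of many of its genes.

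Sequence upstream of 3 members is shown as a description, and of these Cpt1a did not pass the expression threshold below. Ehhadh and Acsm3 are the members with the 2 highest fold changes, and Cpt1a is the entry enzyme of the mitochondrial pathway. Each run is the 250 bases before the RefSeq start site (GRCm38.p6), written 5′ to 3′ on the gene's strand. Capitals mark the hexamer AGGTCA, the core letters read by many nuclear receptors, or its reverse complement TGACCT.
Ehhadh (chr16:21787835-21788084, minus strand): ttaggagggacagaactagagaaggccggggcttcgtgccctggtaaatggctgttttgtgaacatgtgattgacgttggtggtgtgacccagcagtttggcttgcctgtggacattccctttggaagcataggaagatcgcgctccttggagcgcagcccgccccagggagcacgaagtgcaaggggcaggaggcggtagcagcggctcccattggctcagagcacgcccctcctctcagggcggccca
Acsm3 (chr7:119760673-119760922, plus strand): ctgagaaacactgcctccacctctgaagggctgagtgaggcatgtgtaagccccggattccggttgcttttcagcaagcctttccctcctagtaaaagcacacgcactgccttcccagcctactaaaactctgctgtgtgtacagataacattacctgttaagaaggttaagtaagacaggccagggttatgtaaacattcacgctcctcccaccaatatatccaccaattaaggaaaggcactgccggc
Cpt1a (chr19:3323051-3323300, plus strand): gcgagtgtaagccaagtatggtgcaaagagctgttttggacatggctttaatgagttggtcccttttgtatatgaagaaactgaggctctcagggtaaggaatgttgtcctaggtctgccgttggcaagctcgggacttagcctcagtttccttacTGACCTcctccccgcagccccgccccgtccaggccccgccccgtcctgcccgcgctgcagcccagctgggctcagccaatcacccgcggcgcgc
The Cpt1a window holds the hexamer once, 94 bases before the start site, and the Ehhadh and Acsm3 windows do not hold it. The Ehhadh window has 60.4% G and C with 12 CpG dinucleotides, the Acsm3 window 49.2% with 5, and the Cpt1a window 59.6% with 14.

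RefSeq windows were given for 30 of the 32 members, 33 windows in all, and Acaa2 and Decr1 had none. The hexamer was found on either strand in 18.2% of the member windows and in 14.0% of all 32851 windows of the same length. It occurred in 6 members, Acadm, Acadvl, Acsm1, Cpt1a, Echs1 and Slc27a2, none of which passed the expression threshold below. A direct repeat of AGGTCA with 1 base between, the arrangement read by PPAR and RXR pairs and by HNF4A, was searched on both strands. It was found in 0 member windows and in 11 of all windows (0.0335%), and each of its matches also holds the hexamer. The letters TCAAGGTCA, read by estrogen-related receptors and ending in the same hexamer, were found in 0 member windows and in 127 of all windows (0.387%). The median G and C content was 58.8% in member windows and 52.4% in all windows, with a median of 11 and 6 CpG dinucleotides. A match of letters is a description of the window only, and sites with other spellings or farther away were not searched.

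Total gene counts ran from 16591156 to 22898008 per library. Acsm3 and Pex11a rested on the fewest counts of the members. Transcripts of the targeted gene Tfrc did not check the labels, with normalised counts of 5534, 6485 and 3667 in Control against 6976, 4045 and 5898 in knockout kidneys (log2 fold change 0.11 ± 0.29, DESeq2 adjusted p = 0.853). These counts cover the whole gene and all cells of the kidney. Control replicate 3 stood apart from the other Control libraries in this pathway and its tissue. Its level over the mean of Control replicates 1 and 2 had a median of 0.522 over 19 proximal tubule markers, 0.705 over the 32 members and 0.995 over all genes tested. Among the TfR1 knockout libraries, replicate 2 stood highest for the pathway, with a median of 1.39 over the mean of replicates 1 and 3 for the members, 1.06 for the proximal tubule markers and 0.985 for all genes tested. Both sexes were present in each group. Xist was 16704, 78.2 and 22092 in Control and 145, 27153 and 1031 in TfR1 knockout replicates 1 to 3. Control replicates 1 and 3 had a high level, and TfR1 knockout replicate 2 was the single knockout library with one, so the sexes were not balanced between the groups. Within the knockout group, sex cannot be told apart from other traits of replicate 2. A fit with the Xist level as a covariate is given below and cannot separate them, so the part of sex in the result was not tested.

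Across the fatty acid oxidation genes, 3 of 32 were higher in TfR1 knockout kidneys and 0 were lower at an adjusted p under 0.05 (DESeq2 Wald test adjusted over all genes). Among all 16509 genes tested, 7.74% were called higher and 7.18% lower. The members called were Ehhadh, Acsm3 and Ppara, all at least 2-fold higher, where the share of all genes called at least 2-fold higher was 4.41% and lower 4.46%. edgeR's quasi-likelihood test called 2 members higher, Ehhadh and Acsm3, and 0 lower, beside 3.22% of all genes higher and 2.8% lower. At an unadjusted p under 0.05, DESeq2 gave 8 members and edgeR 7, none of them lower. The share of all genes at that level is not given here, for these or for the unadjusted counts below. The median log2 fold change was 0.24 over the members and 0.0071 over all genes tested. The fold change was above 0 for 20 members and below 0 for 12, and 24 members stayed within 1.5-fold in either direction. Libraries of the 2 groups overlapped for 26 members. The other 6, Ehhadh, Acsm3, Ppara, Acaa1b, Eci1 and Pex11a, had every TfR1 knockout library above every Control library, beside 16.9% of all genes with that order.

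**Figure D1:**
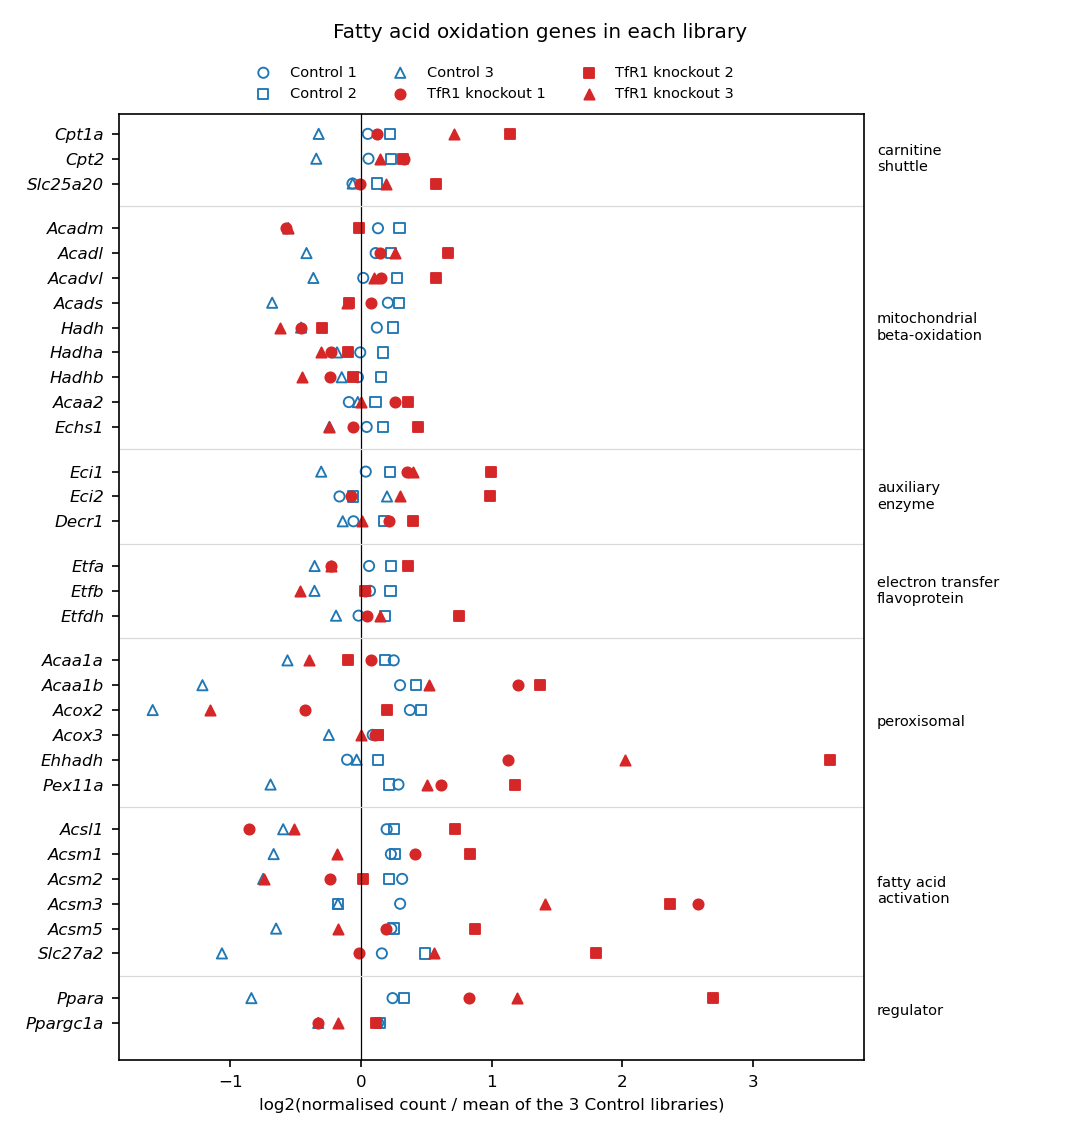
Each row is 1 fatty acid oxidation gene, grouped by role, and the horizontal axis is the log2 ratio of a library's normalised count to the mean of the 3 Control libraries. Open blue symbols are Control and filled red symbols TfR1 knockout libraries. TfR1 knockout replicate 2 (red squares) is the highest of the 3 knockout libraries for 27 of 32 genes, and Control replicate 3 (blue triangles) the lowest Control library for 27 of 32.

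The peroxisomal genes held the largest change. Ehhadh (ENSMUSG00000022853.6, mm9 chr16:21761360-21787917), the bifunctional enzyme that carries out the middle steps of the peroxisomal spiral, had normalised counts of 2577, 3035 and 2710.4 in Control against 6044, 33383 and 11245 in knockout kidneys. Every TfR1 knockout library lay above every Control library, and replicate 2 lay far above the other knockout libraries. Ehhadh rose 6.09-fold (log2 fold change 2.61 ± 0.51, adjusted p = 1.38e-05 in DESeq2 and 0.0449 in edgeR). Without TfR1 knockout replicate 2 the log2 fold change was 1.64 (DESeq2 adjusted p = 1.01e-06), and without Control replicate 3 it was 2.59 (0.0407 in DESeq2, 0.103 in edgeR). As each library was left out in turn it ran from 1.64 to 3.01, past the DESeq2 threshold each time.

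Acaa1b and Acaa1a encode the 2 peroxisomal thiolases among the members, which close the spiral. Acaa1b had normalised counts of 2735, 2977 and 959 in Control against 5117, 5730.4 and 3189.8 in knockout kidneys. The groups did not overlap, and Control replicate 3 was far below the other Control libraries. The difference was not called (log2 fold change 1.07 ± 0.42, adjusted p = 0.0615 in DESeq2 and 0.165 in edgeR), and of the fits that left out a library it passed in DESeq2 only without Control replicate 2, at a log2 fold change of 1.33. Acaa1a had 1933, 1841 and 1100.1 in Control against 1711, 1515 and 1231 in knockout kidneys, with overlapping groups (log2 fold change -0.13 ± 0.27, DESeq2 adjusted p = 0.805). The coding sequences of this pair are 96.5% identical, 1231 of 1275 aligned bases, and 32.0% of the 50-base stretches of Acaa1a and 35.5% of those of Acaa1b occur in another transcript, where uniquely aligned reads cannot be assigned. Their separate counts are therefore uncertain.

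Pex11a, a peroxisome division factor and a known target of PPAR alpha, had normalised counts of 248, 236 and 126 in Control against 311, 459 and 289 in knockout kidneys. All knockout libraries were above all Control libraries and the difference did not pass (log2 fold change 0.79 ± 0.34, adjusted p = 0.0937 in DESeq2 and 0.168 in edgeR). The oxidases of the list showed no such order. Acox2, the oxidase of branched chains and bile acid precursors, had 821, 869.8 and 209.9 in Control against 471, 727 and 285 in knockout kidneys, a spread within each group wider than the difference between them (log2 fold change -0.36 ± 0.52, DESeq2 adjusted p = 0.705). Acox3 had means of 1083 ± 148 in Control and 1145 ± 55.7 in TfR1 knockout libraries (SD, n = 3 each; log2 fold change 0.08 ± 0.18, DESeq2 adjusted p = 0.816).

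**Figure D2:**
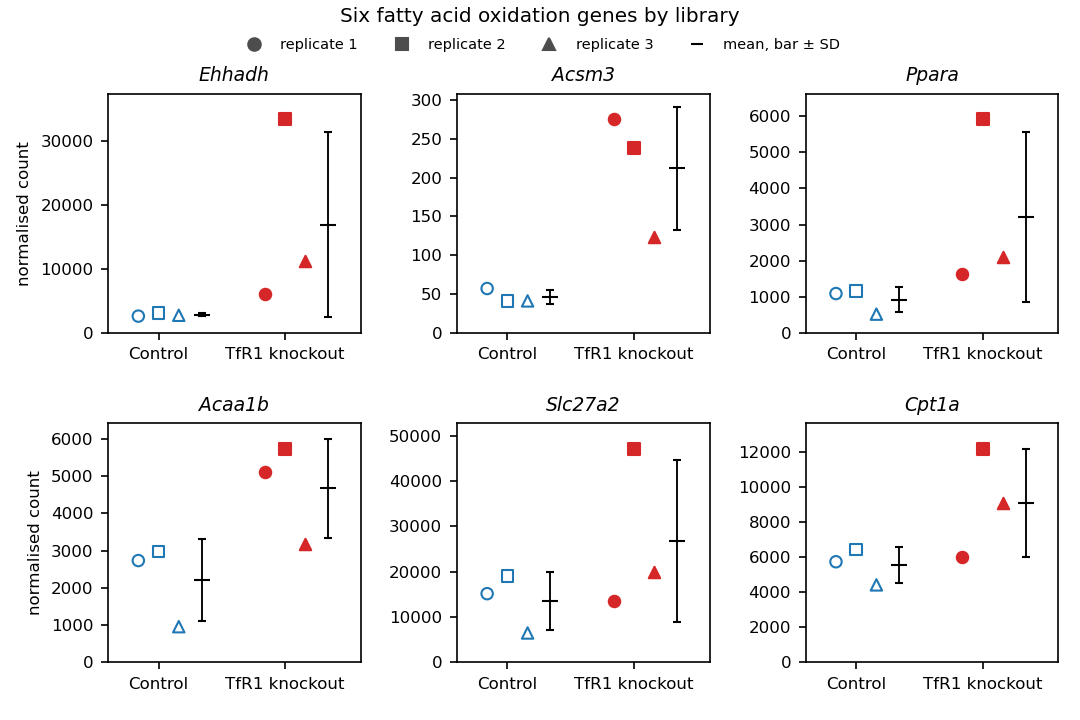
Normalised counts on linear axes from 0 for 6 fatty acid oxidation genes, with 1 symbol per library and the mean ± SD of each group (n = 3) beside it. Groups are apart for Ehhadh, Acsm3, Ppara and Acaa1b and overlap for Slc27a2 and Cpt1a, and TfR1 knockout replicate 2 is the highest library in 5 of the 6 panels, the exception being Acsm3.

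Among the genes of fatty acid activation, 1 of 6 passed. Acsm3 (ENSMUSG00000030935.8, mm9 chr7:126904437-126931027), a medium-chain acyl-CoA synthetase of the mitochondrial matrix, had normalised counts of 56.9, 40.9 and 40.9 in Control against 275, 238 and 123 in knockout kidneys. It was the member with the lowest level, the groups were apart, and here TfR1 knockout replicate 1 was highest. Acsm3 rose 4.57-fold (log2 fold change 2.19 ± 0.38, adjusted p = 6.21e-07 in DESeq2 and 0.0195 in edgeR), and its log2 fold change ran from 1.96 to 2.47 as each library was left out, past the DESeq2 threshold each time. edgeR lost the call without Control replicate 3 (adjusted p = 0.0516). Exons of Eri2 on the opposite strand cover 39.7% of the exon bases of Acsm3, and the strand setting of the counting is not given in the sources used here, so reads of the pair cannot be told apart in that stretch. Eri2 itself had 246, 274 and 348 normalised counts in Control and 206, 212 and 220.4 in TfR1 knockout replicates 1 to 3 (log2 fold change -0.44, DESeq2 adjusted p = 0.176).

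The related synthetases did not share this order. Acsm1 had 1836, 1879.7 and 986 in Control against 2083, 2798 and 1381 in knockout kidneys (log2 fold change 0.41 ± 0.34, DESeq2 adjusted p = 0.459). Acsm2 had 9489, 8857 and 4540.3 in Control against 6485, 7694 and 4565 in knockout kidneys (log2 fold change -0.29 ± 0.33, DESeq2 adjusted p = 0.612). Acsm5 had means of 458 ± 144 in Control and 588 ± 224 in TfR1 knockout libraries (SD, n = 3 each; log2 fold change 0.36 ± 0.36, DESeq2 adjusted p = 0.551). In all 3, Control replicate 3 was the lowest Control library and the groups overlapped. The coding sequences within this family are 62.0% to 65.1% identical, well below the identity of the thiolase pair.

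Slc27a2, the very long chain acyl-CoA synthetase and fatty acid transporter FATP2, had the highest mean count of the list with 15153, 19059 and 6489.7 in Control against 13431, 47049 and 19958 in knockout kidneys. Its knockout values spanned a wider range than the distance between the groups, and knockout replicate 1 lay below Control replicates 1 and 2. The difference did not pass (log2 fold change 0.98 ± 0.50, adjusted p = 0.179 in DESeq2 and 0.295 in edgeR). Without TfR1 knockout replicate 1 it passed (log2 fold change 1.30, DESeq2 adjusted p = 0.0414), and without replicate 2 the log2 fold change was 0.30 (DESeq2 adjusted p = 0.767). Exons of Gm16762 on the opposite strand cover 11.2% of its exon bases. Acsl1, the main long-chain acyl-CoA synthetase, had 9242, 9622 and 5339 in Control against 4453, 13267 and 5666 in knockout kidneys, with 2 of the 3 knockout libraries near or below Control replicate 3 and replicate 2 above all others (log2 fold change -0.05 ± 0.42, DESeq2 adjusted p = 0.957). Leaving out TfR1 knockout replicate 2 moved its log2 fold change to -0.67 (DESeq2 adjusted p = 0.154).

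Of the 2 regulators, 1 passed in DESeq2. Ppara (ENSMUSG00000022383.7, mm9 chr15:85565413-85633249), which encodes the fatty acid sensing nuclear receptor PPAR alpha, had normalised counts of 1083, 1153 and 512 in Control against 1629, 5922 and 2092 in knockout kidneys. The groups were apart, with Control replicate 3 low and TfR1 knockout replicate 2 high. Ppara rose 3.51-fold in DESeq2 and did not pass in edgeR (log2 fold change 1.81 ± 0.49, adjusted p = 0.00365 in DESeq2 and 0.0884 in edgeR). Without TfR1 knockout replicate 2 its log2 fold change was 1.02 (DESeq2 adjusted p = 0.0484, edgeR adjusted p = 0.161). Without Control replicate 3 it was 1.52 (DESeq2 adjusted p = 0.0232, edgeR adjusted p = 0.168). Ppargc1a, which encodes PGC-1 alpha, had 3026, 3061 and 2202 in Control against 2195, 2998 and 2444 in knockout kidneys, with overlapping groups (log2 fold change -0.12 ± 0.22, DESeq2 adjusted p = 0.775).

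In the carnitine shuttle 0 of 3 genes passed in either test, and Cpt1a was the single one at an unadjusted p under 0.05 in both. Cpt1a (mm9 chr19:3323301-3385732, its upstream window shown above), the outer membrane enzyme that sets the rate of entry, had normalised counts of 5730.4, 6433 and 4414 in Control against 6016, 12150.5 and 9057 in knockout kidneys. TfR1 knockout replicates 2 and 3 were above every Control library and replicate 1 lay among them (log2 fold change 0.72 ± 0.29, adjusted p = 0.0798 in DESeq2 and 0.161 in edgeR). Leaving out TfR1 knockout replicate 1 gave a log2 fold change of 0.94 past the threshold (DESeq2 adjusted p = 0.00268), and leaving out replicate 2 gave 0.45 (DESeq2 adjusted p = 0.333). Cpt2, the inner membrane enzyme that reforms acyl-CoA, had 2529, 2846 and 1917 in Control against 3061, 3044 and 2689 in knockout kidneys (log2 fold change 0.27 ± 0.20, DESeq2 adjusted p = 0.403). Slc25a20, the carrier that exchanges acylcarnitine for carnitine, had 1644, 1869.7 and 1646 in Control against 1710.4, 2559 and 1959 in knockout kidneys (log2 fold change 0.27 ± 0.21, DESeq2 adjusted p = 0.415). The 3 fold changes were above 0, and the groups overlapped for each.

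Of the 9 genes of the mitochondrial spiral, 0 passed in either test and 0 had an unadjusted p under 0.05. Their log2 fold changes were above 0 for 4 and below 0 for 5, with a median of -0.04. The 4 acyl-CoA dehydrogenases take the first step for chains of differing length. Acadm, for medium chains, had 10142, 11367 and 6300.2 in Control against 6222, 9166 and 6301 in knockout kidneys, and TfR1 knockout replicates 1 and 3 were at the level of Control replicate 3 (log2 fold change -0.36 ± 0.28, DESeq2 adjusted p = 0.431). Acadl, for long chains, had 6251, 6768 and 4331 in Control against 6408, 9190.0 and 6933 in knockout kidneys (log2 fold change 0.38 ± 0.25, DESeq2 adjusted p = 0.325). Acadvl, for very long chains, had means of 7019 ± 1527 in Control and 8594 ± 1618 in TfR1 knockout libraries (SD, n = 3 each; log2 fold change 0.29 ± 0.24, DESeq2 adjusted p = 0.449), and exons of Dvl2 on the opposite strand cover 42.9% of its exon bases. Acads, for short chains, had means of 2104 ± 689 in Control and 2047 ± 149 in TfR1 knockout libraries (log2 fold change -0.04 ± 0.28, DESeq2 adjusted p = 0.949). Its fold change lay on either side of 0 as single libraries were left out.

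Hadh, the short-chain hydroxyacyl-CoA dehydrogenase, had the lowest fold change of the list, with normalised counts of 9242, 10068 and 6184 in Control against 6177, 6928 and 5531 in knockout kidneys. The knockout libraries were at or near the level of Control replicate 3 and below Control replicates 1 and 2 (log2 fold change -0.45 ± 0.23, adjusted p = 0.19 in DESeq2 and 0.215 in edgeR). Without Control replicate 3 it was the single member called lower in any fit that left out a library (log2 fold change -0.64, DESeq2 adjusted p = 0.00402). Hadha and Hadhb, the subunits of the trifunctional protein, lie head to head on chromosome 5 with 85 bases between their annotated start sites. Hadha had 7969, 8987 and 7048 in Control against 6841, 7458 and 6468 in knockout kidneys (log2 fold change -0.21 ± 0.16, DESeq2 adjusted p = 0.427). Hadhb had 7607, 8608 and 6981 in Control against 6553, 7398 and 5653 in knockout kidneys (log2 fold change -0.24 ± 0.18, DESeq2 adjusted p = 0.394). The groups overlapped for both. Acaa2, the thiolase that closes the spiral, had 8652, 9961 and 9071 in Control against 11053, 11810.2 and 9234 in knockout kidneys (log2 fold change 0.21 ± 0.17, DESeq2 adjusted p = 0.422). Echs1, the short-chain enoyl-CoA hydratase, had means of 4557 ± 645 in Control and 4795 ± 1204 in TfR1 knockout libraries (SD, n = 3 each; log2 fold change 0.073 ± 0.24, DESeq2 adjusted p = 0.879).

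The 3 auxiliary enzymes, which prepare unsaturated chains for the spiral, had fold changes above 0, and none passed in either test. Eci1, an enoyl-CoA isomerase, had 1684, 1912 and 1329 in Control against 2098, 3279 and 2159.6 in knockout kidneys, with every knockout library above every Control library (log2 fold change 0.61 ± 0.25, adjusted p = 0.0849 in DESeq2 and 0.136 in edgeR). Its homologue Eci2 had 2169, 2335 and 2791 in Control against 2306, 4819.5 and 2983 in knockout kidneys and overlapping groups (log2 fold change 0.47 ± 0.30, DESeq2 adjusted p = 0.304). Decr1, the dienoyl-CoA reductase, had 3851, 4536 and 3638 in Control against 4649, 5281 and 4039 in knockout kidneys (log2 fold change 0.22 ± 0.18, DESeq2 adjusted p = 0.471). Eci1 was the single one of the 3 at an unadjusted p under 0.05 in DESeq2 and in edgeR.

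The electron transfer flavoprotein genes hand the electrons of the acyl-CoA dehydrogenases to ubiquinone, and the last of them, Etfdh, carries an iron-sulfur cluster. None of the 3 passed, and 0 had an unadjusted p under 0.05 in either test. Etfa had 6073, 6835 and 4550.0 in Control against 4972, 7474 and 4969 in knockout kidneys (log2 fold change -0.0038 ± 0.25, DESeq2 adjusted p = 0.995). Etfb had 5602, 6248 and 4173 in Control against 5465, 5453 and 3873 in knockout kidneys (log2 fold change -0.12 ± 0.24, DESeq2 adjusted p = 0.8). These subunits of the soluble flavoprotein had overlapping groups. Etfdh had 3059, 3524 and 2715 in Control against 3202, 5216 and 3419.6 in knockout kidneys, with the high value again in TfR1 knockout replicate 2 (log2 fold change 0.35 ± 0.25, DESeq2 adjusted p = 0.371).

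**Figure D3:**
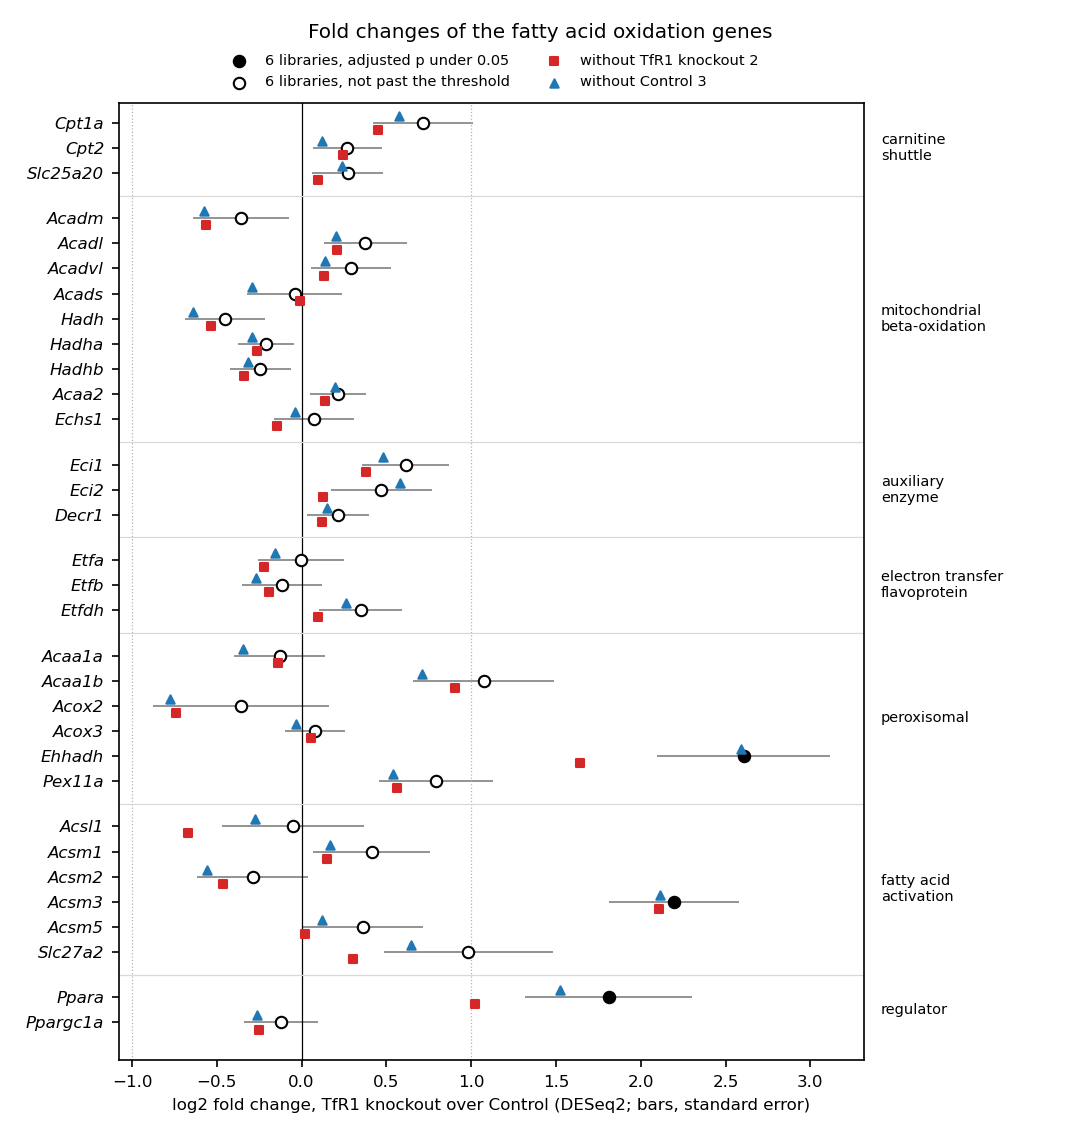
Log2 fold change of TfR1 knockout over Control (DESeq2) for each fatty acid oxidation gene, with the standard error from all 6 libraries; dotted lines mark 2-fold. Filled circles are the 3 genes past an adjusted p of 0.05, red squares leave out TfR1 knockout replicate 2, where Ehhadh moves from 2.61 to 1.64 and Ppara from 1.81 to 1.02, and blue triangles leave out Control replicate 3.

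Per kilobase of exons, Acaa2 was highest in Control kidneys, with 6091 ± 441 normalised counts per kilobase (SD, n = 3), followed by Etfb at 4689 ± 932 and Slc27a2 at 3616 ± 1715. In TfR1 knockout kidneys the first 3 were Slc27a2 at 7146 ± 4751, Acaa2 at 7062 ± 874 and Ehhadh at 5597 ± 4810.4, whose spreads overlapped. Ehhadh stood 20th of 32 in Control kidneys, at 919 ± 78.1, and 3rd in knockout kidneys, with replicate 2 far above replicates 1 and 3. Over knockout replicates 1 and 3 alone, Acaa2 was first at 6696, Slc27a2 second at 4449 and Ehhadh 5th at 2864, behind Etfb and Acadl. Ppara moved from 27th at 239 ± 91.7 to 23rd at 838 ± 614 (26th without knockout replicate 2), and Acsm3 was last in both groups with 9.37 ± 1.87 in Control and 43 ± 16.1 in TfR1 knockout libraries. Between Ehhadh and its Control neighbours Acads (927 ± 303) and Acaa1a (891 ± 250.4), the levels differed by less than their spread.

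**Figure D4:**
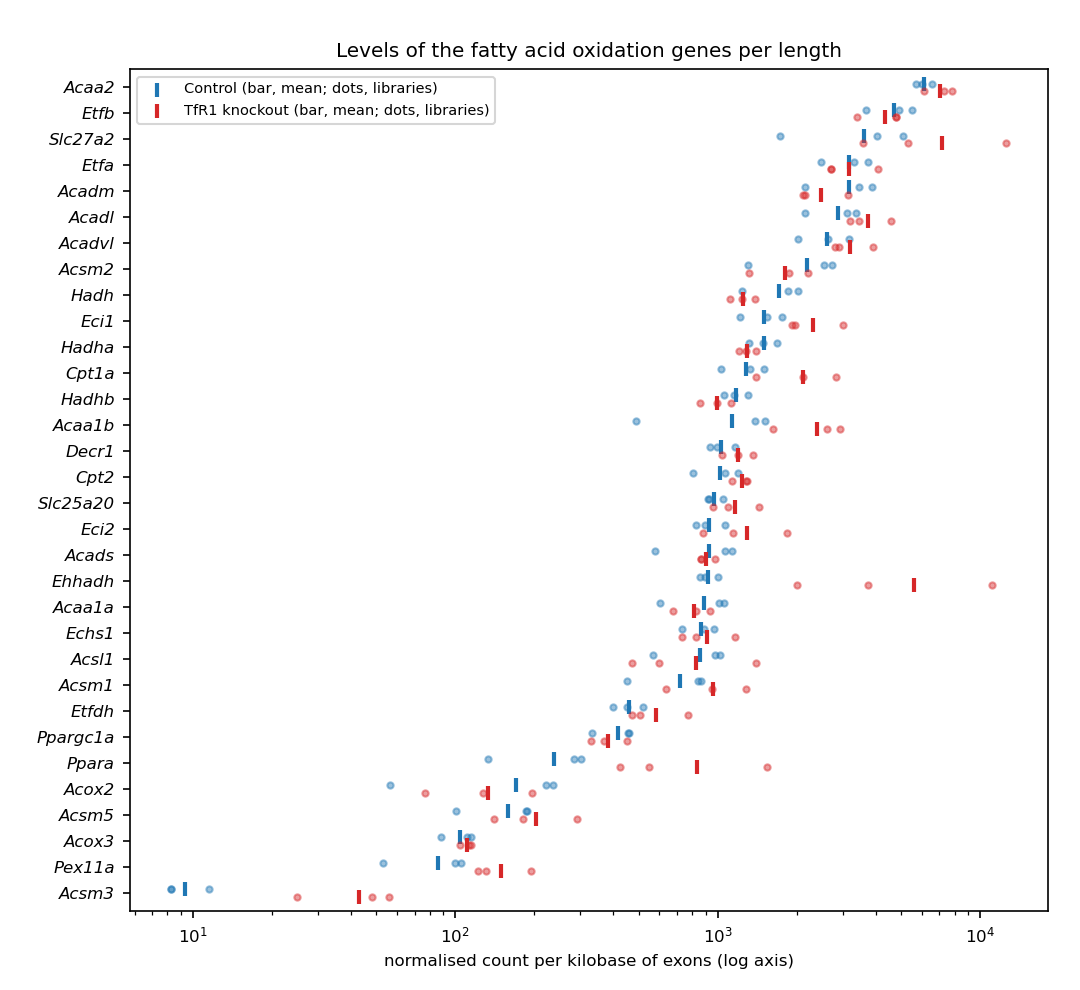
Normalised counts per kilobase of annotated exons on a log axis for the 32 genes, ordered by the Control mean, with dots for libraries and bars for the means of Control (blue) and TfR1 knockout (red). Ehhadh stands at 919 in Control and 5597 in knockout kidneys, and Acsm3 is lowest in both groups.

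TfR1 knockout replicate 2 was the highest knockout library for 27 of 32 members, beside 40.1% of all genes tested and 44.4% of those with a mean of at least 100 normalised counts. It was the highest of all 6 libraries for 20 members, beside 29.3% of all genes. Control replicate 3 was the lowest Control library for 27 of 32 members, beside 43.9% of all genes and 49.9% of those with a mean of at least 100. Without TfR1 knockout replicate 2, DESeq2 called the same 3 members higher and 0 lower (3 of the 7 members at an unadjusted p under 0.05 were lower), beside 5.5% and 5.39% of all genes, and the members' median log2 fold change was 0.098. Without Control replicate 3 it called the same 3 members higher and Hadh lower, beside 7.53% and 6.78%, with a median of 0.13. edgeR without Control replicate 3 called 0 members (8 at an unadjusted p under 0.05, 4 of them lower). Without TfR1 knockout replicate 1, DESeq2 called 6 members higher, the 3 above with Cpt1a, Eci1 and Slc27a2, and 0 lower (9 at an unadjusted p under 0.05, none of them lower), beside 9.56% and 10.5% of all genes. With the Xist level as a covariate, chosen after the data were seen, DESeq2 again called Ehhadh, Acsm3 and Ppara.

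Other genes of the pathway, from lists fixed by name, were called in both directions. For these and the lists below, the share of all genes called was 7.74% higher and 7.18% lower in DESeq2. In edgeR it was 3.22% and 2.8%. Among 25 further oxidation enzymes, 4 were higher and 1 lower, with a median log2 fold change of 0.035; edgeR called none of the 24 it tested, and 10 had an unadjusted p under 0.05. The higher genes included the peroxisomal reductase Decr2 (log2 fold change 1.25), the peroxisomal transporter Abcd3 (0.82) and the branched-chain lyase Hacl1 (0.81). The lower gene was Pecr (-0.85), the peroxisomal trans-2-enoyl-CoA reductase, with 1552, 1457 and 1008 in Control against 988, 670.4 and 569 in knockout kidneys. Without TfR1 knockout replicate 2 the counts were 1 higher and 1 lower. Without Control replicate 3 they were 2 higher and 5 lower. Of the 6 fits that each left out 1 library, Decr2 was called in 4 (not without Control 3 or knockout 2), Abcd3 in 4 (not without Control 1 or knockout 2), Pecr in 2 (without Control 3 or knockout 1) and Hacl1 in 1 (without knockout 1). Of 16 genes of peroxisome biogenesis and catalase, none was called in either test (1 at an unadjusted p under 0.05 in DESeq2, 0 in edgeR), with a median of -0.017 (log2).

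Genes of fatty acid uptake, release, binding and activation outside the list numbered 21, of which 20 were tested, 5 were higher and 3 lower (edgeR 3 and 3), with a median log2 fold change of 0.15. Fabp3, the heart-type fatty acid binding protein, fell, with 1930.2, 1881 and 2142 in Control against 393, 363 and 299 in knockout kidneys (log2 fold change -2.50 ± 0.18, adjusted p = 1.96e-40 in DESeq2 and 0.000917 in edgeR). Every knockout library lay below every Control library. Fabp5 (-1.28) and the synthetase Acsl3 (-0.85) were the other lower genes. Acsl4, the arachidonate-preferring synthetase, rose, with 2038, 1771 and 1799.8 in Control against 4305, 8816 and 5123 in knockout kidneys (log2 fold change 1.70 ± 0.29, adjusted p = 2.91e-07 in DESeq2 and 0.0172 in edgeR). So did Pnpla2, the triglyceride lipase ATGL, with 2043, 2708 and 1991 in Control against 4317, 7394 and 4805 in knockout kidneys (log2 fold change 1.29 ± 0.26, adjusted p = 3.74e-05 in DESeq2 and 0.0263 in edgeR). Slc27a1 (0.69) and Acsl5 (0.60) passed in DESeq2 and not in edgeR, and in 4 and 2 of the 6 fits that left out a library. The other 5 named here passed in all 6. Fabp1, the liver-type binding protein, also rose from a low level, with 4.95, 7.27 and 7.53 in Control against 62.6, 111 and 21.8 in knockout kidneys (log2 fold change 3.31 ± 0.69, adjusted p = 6.01e-05 in DESeq2 and 0.0321 in edgeR), and is named beyond the rule for named genes, after its values were seen.

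Ketone body genes and other known targets of PPAR alpha held the most higher calls among the pathway lists. Of 22 listed and 21 tested, 8 were higher and 1 lower (edgeR 5 and 0), beside 7.74% and 7.18% of all genes in DESeq2. The median log2 fold change was 1.10, or 0.36 without TfR1 knockout replicate 2, where the counts were 7 and 1. Cyp4a14, a fatty acid omega-hydroxylase, had 6518, 7503 and 5246 in Control against 21532, 80318 and 29820.4 in knockout kidneys (log2 fold change 2.77 ± 0.45, adjusted p = 3.65e-08 in DESeq2 and 0.0256 in edgeR). Vnn1, the pantetheinase vanin 1, had 604, 752 and 589.9 in Control against 1662, 4970.5 and 2665 in knockout kidneys (log2 fold change 2.26 ± 0.38, adjusted p = 1.48e-07 in DESeq2 and 0.0195 in edgeR). The mitochondrial thioesterase Acot2 had 498, 579.9 and 395 in Control against 949.7, 2764 and 1788 in knockout kidneys (log2 fold change 1.90 ± 0.38, adjusted p = 1.67e-05 in DESeq2 and 0.0302 in edgeR). In all 3, every knockout library was above every Control library and replicate 2 was highest. Cyp4a31 (1.58) was the fourth by the rule, and 20.5% of its 50-base stretches and 27.6% of those of Acot2 occur in another transcript, so unique counting lowers their counts. Acat1, the acetyl-CoA acetyltransferase of ketone body metabolism, was the lower gene, with 8944, 9722 and 7618 in Control against 5718, 6443 and 5088 in knockout kidneys (log2 fold change -0.61 ± 0.18, adjusted p = 0.00815 in DESeq2 and 0.0703 in edgeR). It was called in 3 of the 6 fits that left out a library, not without Control replicates 1 or 2 or TfR1 knockout replicate 3, while the 4 higher genes were called in all 6. Without Control replicate 3, 4 genes of the list were lower and 7 higher.

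Among 26 other regulators, 2 were higher and 1 lower in DESeq2 and none in edgeR (6 at an unadjusted p under 0.05), with a median log2 fold change of 0.11. The count of higher regulators was near the share of all genes called higher in DESeq2, 7.74%. Lpin1, a coactivator and phosphatidate phosphatase, had 530.2, 638 and 612 in Control against 1037, 4979 and 1126 in knockout kidneys (log2 fold change 2.00 ± 0.54, adjusted p = 0.00306 in DESeq2 and 0.0918 in edgeR). The corepressor Ncor1 had a log2 fold change of 0.54 (DESeq2 adjusted p = 0.0491). Esrrb, an estrogen-related receptor, fell, with 1082, 1259.8 and 509 in Control against 191, 438 and 176 in knockout kidneys (log2 fold change -1.83 ± 0.44, adjusted p = 0.000776 in DESeq2 and 0.0552 in edgeR). The PPAR alpha partner Rxra had 1956, 1996 and 1798 in Control against 1761, 2499 and 1869 in knockout kidneys (log2 fold change 0.092 ± 0.20, DESeq2 adjusted p = 0.81), named after its values were seen. The log2 fold change of Lpin1 was 0.87 without TfR1 knockout replicate 2 (DESeq2 adjusted p = 8.18e-05). Lpin1 lost its call without Control replicate 3 (DESeq2 adjusted p = 0.136), and Ncor1 kept it only without TfR1 knockout replicate 1. Without Control replicate 3 none of the regulators was higher and 2 were lower.

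**Figure D5:**
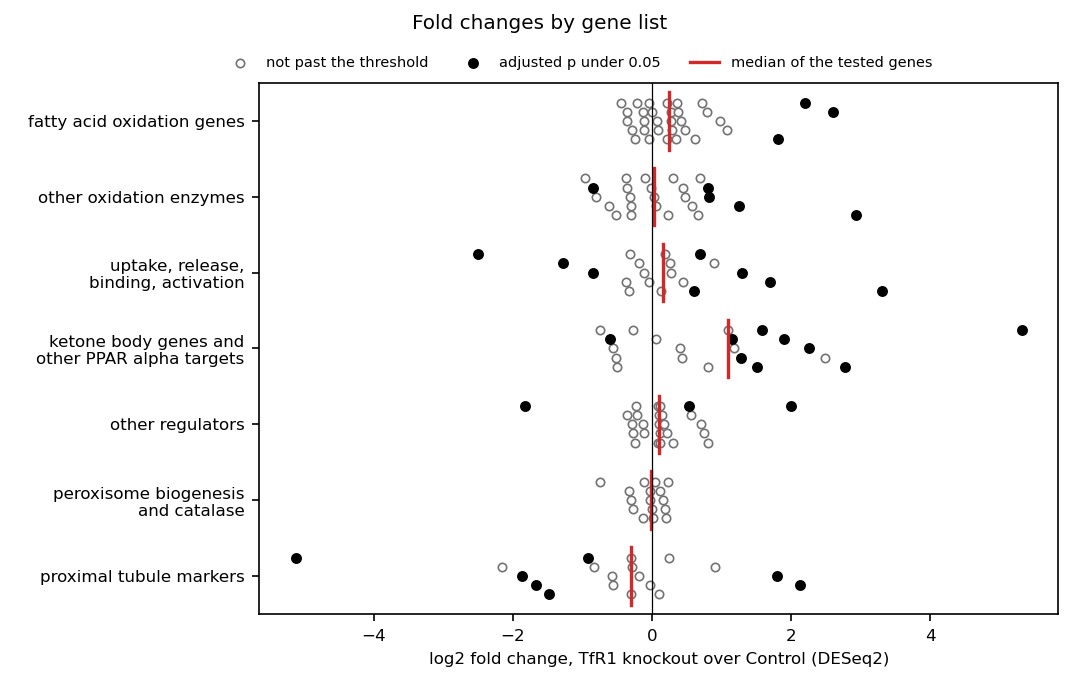
Log2 fold change of TfR1 knockout over Control (DESeq2) for the tested genes of 7 lists, with filled points past an adjusted p of 0.05 and a red bar at each median. The median is 0.24 for the fatty acid oxidation genes, 1.10 for the ketone body genes and other PPAR alpha targets and -0.31 for the proximal tubule markers; the rightmost point is Cyp4a32, which is near 0 counts in Control libraries, so its fold change depends on the fit.

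These are bulk libraries, and fewer cells of a type cannot be told apart from less RNA per cell. The proximal tubule, where the pathway is mainly used, was checked with 19 markers, of which 5 were lower and 2 higher in TfR1 knockout kidneys (7 and 2 without Control replicate 3). edgeR called 2 lower and 2 higher. The log2 fold change was below 0 for 14 markers and above 0 for 5, and the 3 markers given with values here are among the 14. Their summed level was 134821 to 257182 normalised counts in Control and 184887 to 314558 in knockout libraries, and none was at 0. Lrp2 (megalin) had 25256, 26254 and 12909 in Control against 10851, 6311 and 5937 in knockout kidneys (log2 fold change -1.48 ± 0.35, adjusted p = 0.00046 in DESeq2 and 0.0537 in edgeR). Cubn, its partner in protein uptake, had 5796, 5552 and 3337 in Control against 3249, 4141 and 2477 in knockout kidneys (log2 fold change -0.57 ± 0.29, DESeq2 adjusted p = 0.18). The phosphate transporter Slc34a1 had 47169.9, 45339 and 17515 in Control against 26865, 15737 and 19143 in knockout kidneys (log2 fold change -0.83 ± 0.38, DESeq2 adjusted p = 0.131). The median level of the members lay below that of these markers in every library. On the scale of log2(normalised count + 1), the difference of the medians was -1.65, -1.50 and -0.92 for Control against -0.70, -0.18 and -0.11 for knockout replicates. The means were -1.36 ± 0.38 and -0.33 ± 0.32 (SD, n = 3 each), the groups did not overlap, and no test was made of this difference of list medians. A list median can rest on different genes in different libraries. Taken gene by gene, the median log2 fold change was 0.24 over the members and -0.31 over the markers, a smaller gap than between these means.

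Markers of other cells were called in some lists and not in others. Calls are counted over the tested genes, with the range of the summed normalised counts over the Control against the knockout libraries. Straight proximal tubule (S3) markers were 2 lower of 8 (56817 to 193295 against 18224 to 30599.9), and 5 lower and 1 higher without Control replicate 3. Their fold changes were below 0 for 5 and above 0 for 3, and their median level per library overlapped between the groups, unlike the sum. Thick ascending limb markers were 8 lower of 8 (52289 to 118287 against 14689.8 to 27210.4) and distal convoluted tubule markers 3 lower of 4 (18844 to 36496 against 8234 to 14534). Collecting duct markers were 4 higher and 2 lower of 8 (13091 to 22183 against 35867 to 67769), macrophage markers 8 higher of 10 (2695 to 4448 against 8368 to 10319), stroma markers 2 lower of 7 in DESeq2, with 0 in edgeR (2 at an unadjusted p under 0.05) and 0 lower and 1 higher in DESeq2 without Control replicate 3, the highest Control library (67298 to 138433 against 36783 to 67229), podocyte markers 1 higher of 5 (10387 to 15933 against 14709.8 to 17931) and endothelial markers 0 of 6 in both tools, also unadjusted (14383 to 24327 against 16055 to 18649.5). In edgeR, 6 thick ascending limb and 3 distal convoluted tubule markers were lower, and 2 collecting duct markers were higher and 1 lower. The same test called 6 macrophage markers and 1 podocyte marker higher. In DESeq2, collecting duct markers were 2 higher and 1 lower without TfR1 knockout replicate 2, and 3 and 2 without Control replicate 3. Markers of other tissues that oxidise fatty acids or lie beside the kidney were also checked. Adipocyte markers were 1 higher and 1 lower of 6 (3597 to 7488 against 2748 to 5111; edgeR 0 and 1), with fold changes above 0 for 4 and below 0 for 2. The lower one was Ucp1 of brown fat, with 1609, 3244 and 4178 in Control against 716, 422 and 945 in knockout kidneys. Hepatocyte markers were 2 higher of 4 at low levels (171 to 179.8 against 111 to 569), with Alb at 28, 15.5 and 14 and 433, 371 and 67.2. Their fold changes were above 0 for 2 and below 0 for 2, and edgeR called 1 higher of the 3 it tested. Adrenal cortex markers were high in Control replicate 1, with Star at 9334, 159 and 154 and 134, 351 and 1049, and received no adjusted p. Skeletal muscle markers were near 0 (10 to 77.5 against 14.1 to 119), and the 4 globin genes were listed at 0 in every library. Of 2 other genes of the erythroid list Slc4a1 was lower and Alas2 was not called. Slc4a1 is also in the collecting duct list, so its call is counted in both lists and is not particular to red cells. The part of these cell types in the members' levels was not tested.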

How the data were processed

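Poly-A RNA libraries (TruSeq) of 6 whole kidneys, 3 per group, were sequenced on a HiSeq2000. The authors processed reads with CASAVA 1.8.2 and Trimmomatic, aligned them with TopHat 2.0.11 to mm9, kept uniquely mapped reads and deposited raw counts per gene symbol from HTSeq. The HTSeq version, annotation and strand setting are not given in the sources used here. Unique alignment lowers the counts of near-identical genes. The deposited counts were joined by symbol, and the groups and replicate numbers came from the sample labels. Nothing says how libraries were batched, and p-values measure the spread between these samples.

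DESeq2 1.42.0 in R 4.3.3 (Wald test, median-ratio size factors, independent filtering tuned at 0.05, Benjamini-Hochberg over all genes) was the main test, as the study names DESeq2 with 2-fold and an adjusted p under 0.05. It gave 16509 genes an adjusted p. edgeR 4.0.16 (quasi-likelihood, TMM) tested 15308 genes and is printed beside it. Code was checked on simulated counts. Alternatives were limma 3.58.1 with voom, other size factors and filters, a replicate block and leaving out each library. The members, gene lists and marker lists were chosen with earlier results of these data known. Named genes are all members, Tfrc and, per pathway list, up to 4 called genes in each direction with the largest fold change and a mean of at least 100 normalised counts, and up to 3 markers per cell type. Positions and lengths came from GENCODE M1 (mm9), which held 20654 of the 24422 symbols and all members, and upstream windows from RefSeq (GRCm38.p6). Of the 33 member windows, all found in mm9, 12 reach over 30 bases into an annotated exon, among them those of Ppara and Slc27a2, and these are not printed. Results for some genes of the lists are not reported here.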

Additional observations from a re-analysis of the deposited data

How the results depend on the processing

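Ehhadh and Acsm3 were called higher under every alternative set at the start, edgeR and limma-voom included, and Ppara under all but edgeR and limma-voom, which gave it adjusted p of 0.0884 and 0.097. The alternatives that combined edgeR with a left-out library, and the Xist covariate, were chosen after the data were seen. edgeR without Control replicate 3 called 0 members higher and 0 at 2-fold (8 at an unadjusted p under 0.05, Ehhadh adjusted p = 0.103, Acsm3 0.0516), while without TfR1 knockout replicate 2 it called 2. Total-count size factors, which shift the median of all genes by -0.10 (log2), called 1 member lower (Hadh, -0.56). As each library was left out, members called lower ran from 0 to 1, higher from 3 to 6, and all genes called lower from 575 to 1674 and higher from 664 to 1531. The 6 were Cpt1a, Eci1 and Slc27a2 besides the 3, without TfR1 knockout replicate 1. All genes called lower and higher were 428 and 493 in edgeR, 456 and 485 in limma-voom, 449 and 397 in edgeR without Control replicate 3, and 239 and 338 without TfR1 knockout replicate 2. Libraries with the same number did not deviate together (r = -0.038, 0.055 and 0.090), not every library correlated best with its own number, and the numbers were not taken as pairs. The fit with a replicate block called 8 members higher and 0 lower (1 of the 9 at an unadjusted p under 0.05 was lower). The added members were Cpt1a, Acaa1b, Eci1, Slc27a2 and Pex11a. Over all genes, the block fit called 1085 higher and 1087 lower, beside 1277 and 1186 in the main fit. Because libraries with the same number were not taken as pairs, the added calls were not counted as results for those members.

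Of 576 member values under alternatives, 536 kept direction and call, 23 changed sign, 11 gained and 6 lost the call. The sign changes were all in members with small fold changes. With 1 library left out, log2 fold changes ran from -0.29 to 0.12 for Acads, -0.35 to 0.0086 for Acaa1a, -0.032 to 0.14 for Acox3, -0.14 to 0.21 for Echs1, -0.22 to 0.12 for Etfa, -0.27 to 0.035 for Etfb, -0.67 to 0.23 for Acsl1 and -0.095 to 0.30 for Tfrc. Acads was 0.0094 in limma-voom and 0.017 with the replicate block, Acox3 -0.023 and Echs1 -0.048 with total-count size factors. In edgeR without Control replicate 3, Acox3 was -0.043, Echs1 -0.050 and Tfrc -0.10, and without TfR1 knockout replicate 2 Echs1 was -0.15. The cause was not tested. The members' median log2 fold change stayed above 0, from 0.093 to 0.32, and the difference between knockout and Control in the members' median against the proximal tubule markers ran from 0.88 to 1.24 as each library was left out. Acsm3 had the fewest counts of the members.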

Other observations

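TfR1 knockout replicate 2 was the highest of the 6 libraries for 14 of the 22 ketone body genes and other PPAR alpha targets and for 13 of the 26 other regulators, beside 29.3% of all genes tested. The genes below are named after their values were seen, and none of them passed the threshold. Pdk4, the kinase that turns off pyruvate dehydrogenase, had normalised counts of 1036, 2102 and 2680.3 in Control against 3434, 25171 and 3895 in knockout kidneys (log2 fold change 2.48 ± 1.02, DESeq2 adjusted p = 0.0816), and without that library its log2 fold change was 0.92 (DESeq2 adjusted p = 0.101). Angptl4, an inhibitor of lipoprotein lipase, had 1315, 1949 and 2780.4 in Control against 1561, 8697 and 2654 in knockout kidneys (log2 fold change 1.10 ± 0.80, DESeq2 adjusted p = 0.392), and Klf15, a Krüppel-like transcription factor, had 1164, 1145 and 629.7 in Control against 879, 2968 and 1301 in knockout kidneys (log2 fold change 0.81 ± 0.45, DESeq2 adjusted p = 0.226). Hnf4a, a tubule and liver nuclear receptor, had 6613, 7011 and 2841 in Control against 4139, 5327 and 4437 in knockout kidneys (log2 fold change -0.24 ± 0.34, DESeq2 adjusted p = 0.693), with the lowest value in Control replicate 3.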
